A study of Mus musculus with 8 samples.

Results

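Mineral deposition in cartilage is set by a small group of genes that either supply phosphate or hold crystal growth back, and 8 of them are described here in rib chondrocytes of Hoxc8 transgenic and control mouse embryos. The genes are Alpl, Phospho1, Smpd3, Slc20a1 and Slc20a2, whose products favour mineral, and Enpp1, Ank and Mgp, whose products oppose it. They were found by symbol: every probe set that the platform annotation assigned to exactly 1 gene, that gene being one of the 8, was taken. This gave 11 of the 45101 probe sets, covering 6 of the 8 genes. Phospho1 was listed only on 1 probe set shared with a second gene and Enpp1 was named on none, so neither was measured here. Of the 11 probe sets, 10 had a mean signal of at least 110 over all arrays, the minimum for testing, and these 10 covered all 6 genes.

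Pyrophosphate binds to nascent hydroxyapatite and stops it from growing. Enpp1 produces pyrophosphate from nucleotides outside the cell, Ank helps to export it or its nucleotide precursors, and Alpl, the tissue-nonspecific alkaline phosphatase, cleaves it and so both removes the inhibitor and frees phosphate. Smpd3, a neutral sphingomyelinase, and Phospho1, a phosphatase of phosphocholine, act in lipid breakdown that feeds matrix vesicles, the small membrane bodies in which hypertrophic cartilage starts to mineralize. Slc20a1 and Slc20a2 are sodium-coupled phosphate carriers, and Mgp, matrix Gla protein, is an inhibitor in cartilage and arteries that depends on vitamin K.

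Total RNA of primary rib chondrocytes from FVB embryos at stage E18.5 was hybridized to 8 Affymetrix arrays, 4 from Hoxc8 transgenic embryos and 4 from wild-type controls. Rib cages were digested with collagenase and trypsin, with no sorting step named. The embryos came from 4 litters, each of which gave 1 transgenic and 1 control sample, called litters 1 to 4 here. The promoter that drives the transgene, the number of founder lines and how many embryos made up a sample are not given in these sources.

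Signals are linear MAS5 intensities, scaled to a trimmed mean of 500 on every array, and the array medians lay between 107 and 121. All 15 chondrocyte markers examined passed the minimum signal, among them Col2a1 (39200 to 45100 in transgenic and 40100 to 63300 in control samples) and Acan (21000 to 32700 and 22300 to 30000). Markers of other cells passed it too: 6 of the 9 osteoblast and osteocyte markers that are not themselves members and 4 of 8 osteoclast markers. So did all 10 skeletal muscle markers and 12 of 13 perichondrium and fibroblast markers. Of the latter, Dcn (18500 to 22100 in transgenic, 19400 to 21000 in control samples) and Tnmd (7280 to 11300 and 8480 to 12400) were bright. Of all probe sets without a control role, 22519 of 45037 passed, so a pass alone is no sign of a cell type. Among osteocyte markers, Dmp1 (means of 126 ± 38.2 in transgenic and 145 ± 75.6 in control samples, SD, n = 4 each) and Phex (154 ± 34.6 and 138 ± 19.9) passed, while Sost (6.81 to 40.4 in transgenic, 5.25 to 37.2 in control samples) and Mepe (7.35 to 18.6 and 6.75 to 106) did not. Among osteoclast markers, Ctsk (1130 to 1910 in transgenic, 1250 to 2290 in control samples) and Acp5 (368 to 612 and 435 to 653) passed, while Ocstamp (3.35 to 35.4 and 3.47 to 10.1) did not. In a preparation with no sorting step named, fewer cells of a type and less RNA per cell cannot be told apart. The probe set of Hoxc8, the homeobox gene of the transgene, had a mean signal of 3885 ± 369 in transgenic and 3519 ± 501 in control samples (SD, n = 4 each), a difference of 0.15 log2 (SE 0.12) that was not called (limma, adjusted p = 0.9999). It is not known here whether this probe set reads the sequence carried by the transgene, and it is therefore a weak check of the labels.

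None of the 10 tested probe sets of the mineralization genes passed the test between genotypes. Of the 22519 probe sets tested across the array, 0 passed an adjusted p of 0.05 (limma with Benjamini-Hochberg adjustment; percent called, 0), and 246 had an unadjusted p below 0.05, of which 0 belonged to these genes. Fitted differences were taken on the log2(signal + 22.2) scale as transgenic minus control. They were positive for 4 and negative for 6 of the 10 probe sets, with a median of -0.02, beside a median of -0.00 over all probe sets tested. Their median size was 0.05 log2, beside 0.08 over all probe sets tested. The signals of the genotypes overlapped for all 10. The share over all probe sets tested was not computed, so this count cannot be read as a trait of these genes. The 95% intervals of the fitted folds reached from 0.608 to 1.57 for the second Slc20a1 probe set and from 0.633 to 1.59 for the third of Smpd3. They lay within 0.725 to 1.36 for the other 8. This fit leaves the litter out, so its errors hold the spread between litters. With litter as a block all 10 errors were smaller. The SE of the second Slc20a1 probe set was then 0.14 log2 against 0.317, and that of Mgp 0.082 against 0.129. With the block too, 0 of the 10 passed, and 0 had an unadjusted p below 0.05 (limma).

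**Figure D1:**
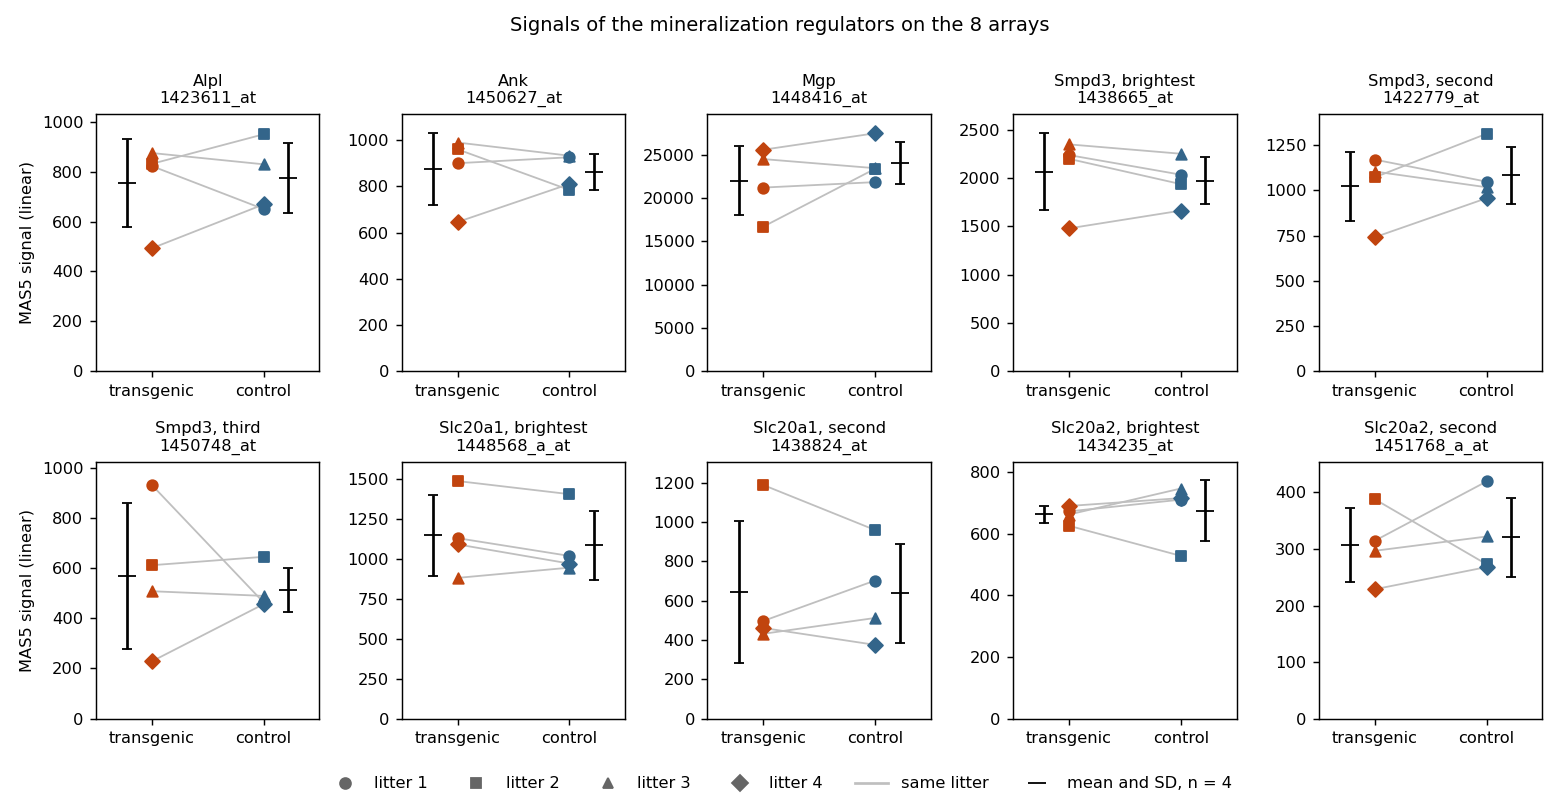
Deposited MAS5 signal (vertical axis, linear, starting at 0) of the 10 tested probe sets in 4 transgenic and 4 control samples, with the litter shown by the marker, grey lines joining samples of 1 litter, and bars giving the mean and SD. Transgenic and control signals overlap in every panel. The transgenic sample of litter 4 is the lowest of the 8 for Alpl, Ank, all 3 Smpd3 probe sets and the second Slc20a2 probe set.

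Among the genes that favour mineral, Alpl gave signals of 822, 831, 875 and 493 in transgenic samples of litters 1 to 4, and of 649.9, 949.7, 829 and 669 in control samples. The transgenic sample of litter 4 was the lowest of all 8 and the control sample of litter 2 the highest. The means were 755 ± 177 in transgenic and 774 ± 142 in control samples (SD, n = 4 each), and the fitted difference was -0.05 log2 (SE 0.19; 95% interval 0.729-fold to 1.28-fold; limma, adjusted p = 0.9999). Within litters, transgenic over control was 1.27, 0.875, 1.05 and 0.737, so that 2 litters lay above 1 and 2 below. Without the transgenic sample of litter 4 the difference was 0.14 log2 and still not called.

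Smpd3, which releases ceramide and phosphocholine from sphingomyelin, was read by 3 probe sets. The brightest of them gave 2240, 2201, 2351 and 1480 in transgenic samples of litters 1 to 4, and 2037, 1939, 2254 and 1664 in control samples. In litters 1 to 3 the transgenic sample was the higher of the pair and in litter 4 it was the lower, with means of 2068 ± 397 and 1973 ± 245 (SD, n = 4 each) and a fitted difference of 0.05 log2 (SE 0.15; 95% interval 0.825-fold to 1.3-fold). The second gave 1171, 1073, 1105 and 741 in transgenic samples, and 1049, 1314, 1018 and 957 in control samples, a difference of the opposite sign (-0.09 log2, SE 0.16). The third spread more widely than the others, with 931, 611, 508 and 228 in transgenic samples and 463, 645, 489 and 456 in control samples (0.00 log2, SE 0.31). Transgenic over control was 2.01 in litter 1 and 0.5 in litter 4, opposite departures that cancelled in the mean. With the 3 probe sets averaged, the difference of Smpd3 was -0.01 log2, so no direction can be given for this gene.

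Slc20a1 was read by 2 tested probe sets. For the brighter one the signals were 1128, 1485, 879.6 and 1089 in transgenic samples of litters 1 to 4, and 1017, 1403, 943.5 and 969 in control samples. The samples of litter 2 were the highest of their genotype, and the genotype means were 1145 ± 251 and 1083 ± 215 (SD, n = 4 each; 0.07 log2, SE 0.17; 95% interval 0.816-fold to 1.36-fold). For the second the signals were 497, 1188, 431 and 461 in transgenic samples, and 702, 959, 512 and 375 in control samples, again highest in litter 2 in both genotypes, and the fitted difference was -0.03 log2 (SE 0.32). The probe sets thus differed in sign for genotype and shared the high litter. The third Slc20a1 probe set stayed under the minimum signal and was not tested (9.92 to 86.7 in transgenic, 6.94 to 90.2 in control samples).

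Slc20a2, the second carrier of this family, gave 672, 626, 662 and 689.8 in transgenic samples of litters 1 to 4, and 710.3, 528, 746 and 715 in control samples by its brighter probe set. The transgenic signals lay within the range of the control signals, whose lowest value came from litter 2. The means were 662 ± 27.2 and 675 ± 99.4 (SD, n = 4 each), and the fitted difference was -0.02 log2 (SE 0.13; 95% interval 0.811-fold to 1.21-fold). The other probe set ranged from 229 to 388 in transgenic and from 268 to 419 in control samples (-0.06 log2, SE 0.19). Over the 8 arrays the signals of the pair of Slc20a2 probe sets correlated at Pearson r = 0.125 (Spearman rho = 0.048). For the pair of Slc20a1 r was 0.863 (rho = 0.69), and for the Smpd3 probe sets 0.696 to 0.88 (rho = 0.452 to 0.929).

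Of the genes that oppose mineral, Ank gave 901, 961, 990.4 and 646 in transgenic samples of litters 1 to 4, and 926, 785, 933 and 811 in control samples. As for Alpl, the lowest of the 8 signals was that of the transgenic sample of litter 4. The means were 875 ± 157 in transgenic and 864 ± 77 in control samples (SD, n = 4 each), with a fitted difference of 0.00 log2 (SE 0.15; 95% interval 0.805-fold to 1.25-fold). Its sign turned under 7 of 20 alternative settings, all of which left out 1 array or 1 litter.

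Mgp gave 21190, 16680, 24480 and 25560 in transgenic samples of litters 1 to 4, and 21820, 23360, 23430 and 27460 in control samples. The transgenic sample of litter 2 stood below the other 7. The means were 21980 ± 3989 and 24020 ± 2410 (SD, n = 4 each), and the fitted difference, -0.14 log2 (SE 0.13; 95% interval 0.747-fold to 1.1-fold; limma, unadjusted p = 0.29), had the largest size of the 10 probe sets. Within litters, transgenic over control was 0.971, 0.714, 1.04 and 0.931. The sign was negative under all 20 alternative settings, and the difference was -0.02 log2 without the transgenic sample of litter 2.

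**Figure D2:**
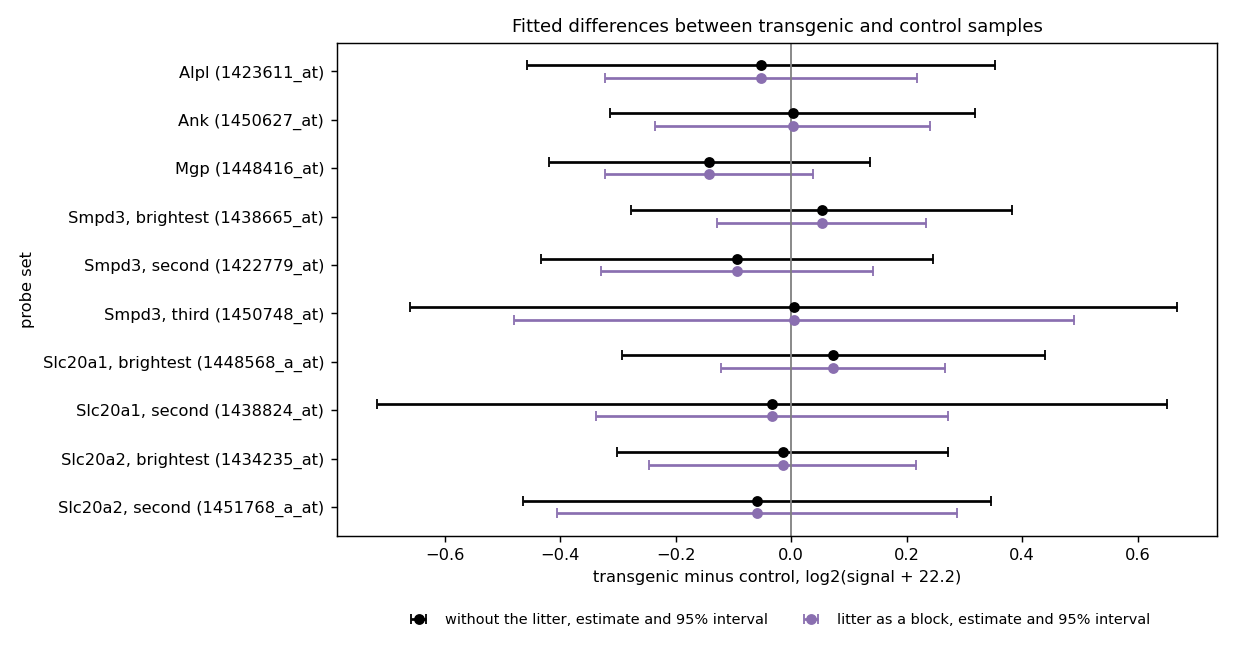
Fitted difference of each tested probe set (transgenic minus control, log2 scale, horizontal axis) with its 95% interval, without the litter (black) and with litter as a block (purple). All 20 intervals include 0, and the estimate farthest from 0 is that of Mgp at -0.14.

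The same genes were then compared between litters, with genotype in the model (limma's moderated F-test). Over the whole array 2027 of 22519 probe sets passed an adjusted p of 0.05 (percent called, 9). Of the 10 probe sets here 3 did: the second probe set of Slc20a1 (adjusted p = 0.00676), its brightest (adjusted p = 0.0284) and the brightest of Smpd3 (adjusted p = 0.0404). The mean of the transgenic and control signal of the second Slc20a1 probe set was 599, 1073, 472 and 418 in litters 1 to 4, and that of the brightest was 1072, 1444, 912 and 1029. For the brightest Smpd3 probe set the litter means were 2138, 2070, 2302 and 1572. Slc20a1 was thus highest in litter 2, in both genotypes and by both probe sets, and Smpd3 lowest in litter 4. The other Smpd3 probe sets did not pass (adjusted p = 0.162 and 0.147), nor did Alpl (0.104), Mgp (0.102), Ank (0.271) or Slc20a2 (0.412 and 0.373).

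These litter calls changed with the samples and with the settings of the test. Without litter 2, 0 of the 10 probe sets passed, with adjusted p = 0.311 for the second and 0.489 for the brightest Slc20a1 probe set. Over the whole array 562 of 22519 probe sets passed without that litter, against 2027 with all samples. The loss of calls was thus not particular to these genes. Without litter 4 the adjusted p of the brightest Smpd3 probe set was 0.607, and 1118 probe sets passed over the whole array. When limma's variance prior was not allowed to follow the signal, 0 probe sets passed on the whole array, and the second Slc20a1 probe set had an adjusted p of 0.126 (unadjusted p = 0.00344). Under quantile normalization 4 of the 10 passed, the fourth being Mgp (adjusted p = 0.0195), beside 1904 of 22519 over the whole array.

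Marker sums moved with the litters as well. The summed signal of 15 genes that respond to tissue dissociation, such as Il6, Cxcl1, Fos and Nr4a1, was 164800, 213200, 162600 and 124200 in transgenic samples of litters 1 to 4. In control samples it was 171100, 217800, 144100 and 119000. Between genotypes 12 of the 15 differences were positive and 3 negative, beside 48.8% positive over all probe sets tested. The largest were those of Il6 (0.62 log2, SE 0.29) and Cxcl1 (0.41, SE 0.29), both positive in all 4 litters, and none was called. Some cell type lists leaned the other way: 2 positive and 10 negative for perichondrium and fibroblasts, 1 and 6 for white blood cells, 0 and 4 for osteoclasts. Chondrocyte markers (7 and 8) and skeletal muscle markers (5 and 5) were near even. None of these was called either. The dissociation sum was highest in litter 2, as Slc20a1 was, and lowest in litter 4, and all 15 genes passed the litter test. Not every gene had this order: Fosb was highest in litter 3 (litter means 4209, 4523, 4629 and 2839). Il6 (206, 416, 193 and 208), Hspa1a and Hspa1b were lowest in litter 3. Other sums were highest in litter 2 in both genotypes as well: that of 15 chondrocyte markers was 427200, 458700, 413700 and 409000 in transgenic samples, and 440500, 505800, 397100 and 399100 in control samples. That of the acidic mineral-binding proteins reached 77510 in the transgenic and 83650 in the control sample of litter 2. Most of it was Sparc (litter means 58260, 61770, 52200 and 50920), while Omd was highest in litter 4 (21950) and Dmp1 in litter 3 (206). The summed signal of 13 genes of hypertrophic chondrocytes, the cells that mineralize, was 19640, 20480, 18400 and 16290 in transgenic samples, and 19180, 22940, 17330 and 15100 in control samples. It too was highest in litter 2 and lowest in litter 4, and 4 of its 12 tested genes passed the litter test. Of these 4, Col10a1 (litter means 8106, 8893, 6344 and 5819), the largest part of the sum, Pth1r and Vegfa had the same highest and lowest litter. Ihh, the other, was highest in litter 1 and low in litter 2 (395, 222, 382.5 and 216). Runx3 (313, 306, 398 and 225) and Dlx5 (409, 436, 530 and 294), which did not pass, were highest in litter 3. The summed signal of 9 osteoblast and osteocyte markers, with Alpl and Smpd3 left out, was 24900, 20250, 25100 and 15290 in transgenic samples, and 21640, 22050, 28470 and 19430 in control samples. Most of this sum was Col1a1, a collagen gene that fibroblasts also express, whose litter means were 22060, 19550, 24960 and 15980. The bone genes Ibsp (427, 721, 722 and 514) and Sp7 (339, 356, 447 and 385) were lowest in litter 1 and Phex (149, 115, 179.5 and 141) in litter 2. The summed signal of 10 white blood cell markers was 3579, 2271, 4066 and 4343 in transgenic samples, and 5842, 2460, 3980 and 6630 in control samples. The neutrophil genes S100a8 (litter means 1417, 688, 1286 and 1914) and S100a9 (1685, 733, 939 and 2114) were lowest in litter 2 and highest in litter 4, whereas Csf1r, a macrophage gene (404, 376, 549 and 287), was highest in litter 3 and lowest in litter 4. The part of these cell states and cell types in the levels of Slc20a1 and Smpd3 was not tested.

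**Figure D3:**
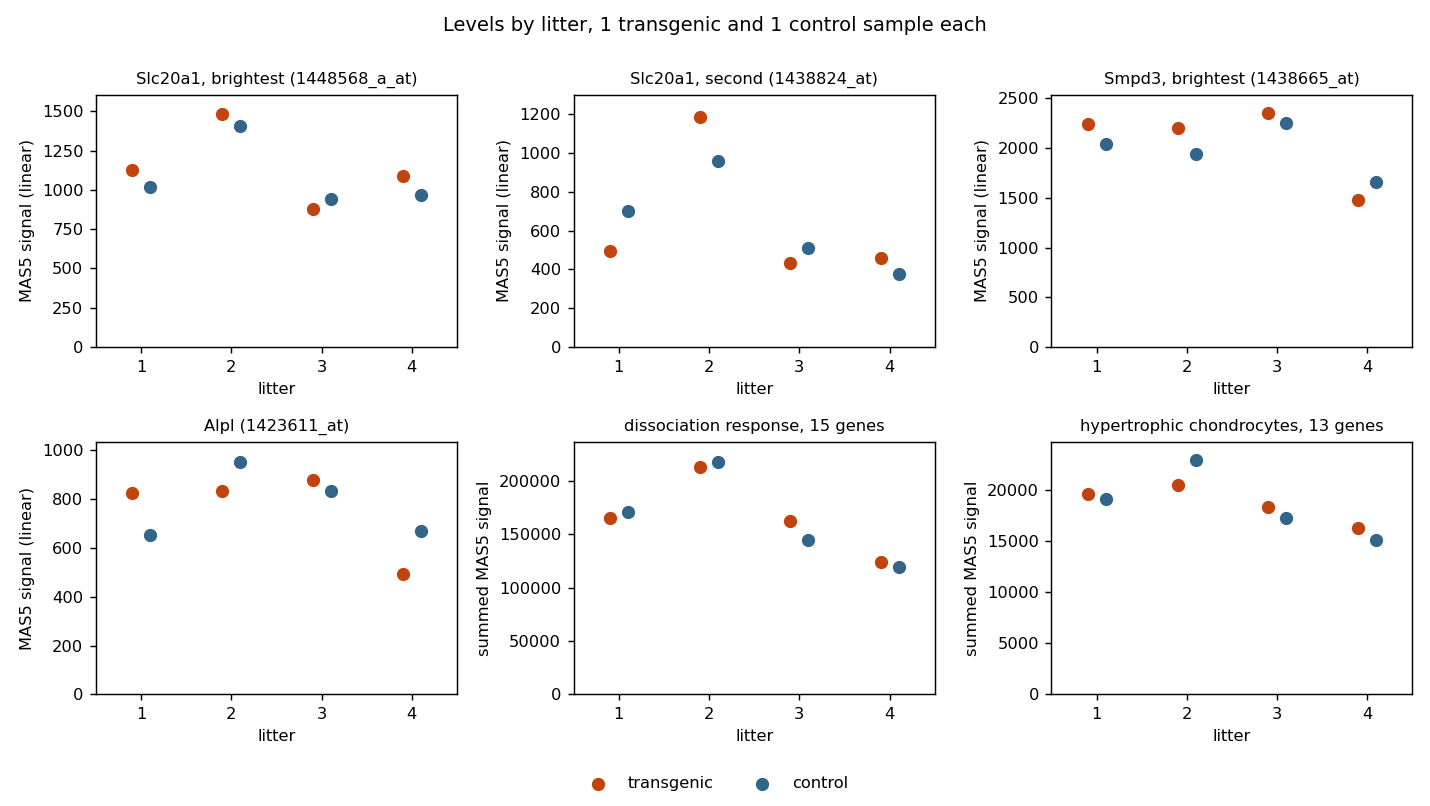
Signals of 4 probe sets and summed signals of 2 marker lists (vertical axes, linear, starting at 0) by litter, with transgenic samples left of control samples. Both Slc20a1 probe sets and the dissociation genes are highest in litter 2, and the brightest Smpd3 probe set is lowest in litter 4 in both genotypes.

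RefSeq promoter windows of the GRCm38.p6 build, 5 in all, were at hand for 3 of the 6 measured genes, and the 250 bases before the outermost start are shown for each: Slc20a1, because its level differed between litters, and Alpl and Ank beside it. Capitals mark matches, on either strand, to TAAT (the core bound by many homeodomain proteins), CACGTG (an E-box), TGACG (a cAMP response element part), TGAGTCA or TGACTCA (AP-1), CCAAT and GGGCGG (a GC box). The windows lie at chr2:129198523-129198772 (plus strand) for Slc20a1, chr4:137796385-137796634 (minus strand) for Alpl and chr15:27466427-27466676 (plus strand) for Ank.
Slc20a1: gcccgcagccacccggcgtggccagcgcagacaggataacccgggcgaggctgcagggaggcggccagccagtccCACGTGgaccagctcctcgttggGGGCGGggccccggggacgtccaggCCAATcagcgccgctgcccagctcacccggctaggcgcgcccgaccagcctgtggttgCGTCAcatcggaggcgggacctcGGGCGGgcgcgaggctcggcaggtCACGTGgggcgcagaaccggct
Alpl: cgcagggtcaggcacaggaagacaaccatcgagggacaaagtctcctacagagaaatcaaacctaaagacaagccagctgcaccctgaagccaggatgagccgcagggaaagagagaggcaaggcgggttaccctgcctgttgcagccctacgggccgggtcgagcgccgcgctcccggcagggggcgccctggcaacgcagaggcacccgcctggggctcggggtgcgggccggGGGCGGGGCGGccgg
Ank: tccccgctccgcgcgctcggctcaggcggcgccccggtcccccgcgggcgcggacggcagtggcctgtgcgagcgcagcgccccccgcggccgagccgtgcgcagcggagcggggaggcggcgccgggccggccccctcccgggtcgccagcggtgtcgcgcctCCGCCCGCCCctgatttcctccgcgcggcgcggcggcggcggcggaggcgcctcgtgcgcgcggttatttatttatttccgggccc
The Slc20a1 window held 2 CACGTG, 2 GGGCGG, 1 CCAAT and 1 TGACG, read here as its reverse complement CGTCA. The Alpl window held 2 overlapping GGGCGG and the Ank window 2 overlapping GGGCGG, read as CCGCCC. None of these 3 held TAAT or an AP-1 match. The inner starts of Alpl and Slc20a1, not shown, did hold TAAT: 2 matches, with 1 TGACG, before that of Alpl, and 1 match, with 2 TGACG and 1 GGGCGG, before that of Slc20a1. Over 32851 RefSeq promoter windows of this length, 6.02% held CACGTG, 32.7% GGGCGG, 33.8% CCAAT, 17.8% TGACG, 54.9% TAAT and 4.46% an AP-1 match. These windows are rich in G and C, at 75.2% for Slc20a1, 68.4% for Alpl and 81.2% for Ank. A match describes the letters of the window only.

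The levels of the 6 genes were compared with each other over the 8 arrays, giving 15 pairs. Ank and the brightest Smpd3 probe set had the highest correlation (Pearson r = 0.921, exact permutation p = 0.00283, adjusted over the 15 pairs p = 0.0424; Spearman rho = 0.857, exact permutation p = 0.0107, adjusted p = 0.161). Without the 2 arrays farthest from the median of Ank, r was 0.902. After the litter means were subtracted it was 0.831. Values of that last kind rest on 4 differences, 1 per litter, and not on 8 separate arrays. With the other Smpd3 probe sets r was 0.581 (exact permutation p = 0.142) and 0.629 (exact permutation p = 0.116), so the relation rests on 1 Smpd3 probe set. Alpl and Smpd3 followed (r = 0.795, exact permutation p = 0.0179, adjusted p = 0.134; rho = 0.524, exact permutation p = 0.197, adjusted p = 0.583), with r = 0.591 without the 2 farthest arrays. Slc20a1 and Slc20a2 did not pass adjustment (r = -0.748, exact permutation p = 0.0277, adjusted p = 0.138; rho = -0.619, exact permutation p = 0.115, adjusted p = 0.431), with r = -0.153 without the 2 farthest arrays and 0.209 after the litter means were subtracted. For Alpl and Smpd3 that last value was 0.522. Arrays of 1 litter share that litter and are not independent, so these p-values are too small.

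The genes whose signals followed each member most closely over the 8 arrays are given as a description. For Smpd3 they were Ror2, a receptor tyrosine kinase gene of the Wnt5a pathway (r = 0.995), Rangap1 (0.988) and Adck2 (0.986). For Alpl they were Snx19 (0.967), Ptprv (0.966) and Ube4b (0.966), and for Ank Abl1, a tyrosine kinase gene (0.982), Polrmt (0.97) and Tmem131 (0.966). Slc20a1 was followed most closely by Rpl12, a ribosomal protein gene (0.98), Erdr1 (0.973) and Rgs2 (0.966), and Slc20a2 by Usp38 (0.982), Rfc4 (0.976) and Nbl1 (0.963). For Mgp they were 2310002L09Rik (0.969), Tfrc, the transferrin receptor gene (0.968), and Hsbp1 (0.96). With 10989 genes searched over 8 arrays from 4 litters, values this high are no measure of a shared role.

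Genes related to these 8 were read from 7 lists, and 0 of their tested genes were called between genotypes. In pyrophosphate and nucleotide handling, 6 of 10 genes were tested, 1 positive and 5 negative (transgenic minus control; median -0.04 log2, range -0.05 to 0.05). Ppa1, a cytosolic pyrophosphatase gene, had means of 19840 ± 2270 in transgenic and 19110 ± 2164 in control samples (0.05 log2, SE 0.11), and Nt5e, whose product makes adenosine from AMP, 2053 ± 166 and 2116 ± 134 (-0.04 log2, SE 0.11). Panx3, a channel gene of skeletal cells, stood at -0.05 log2 (SE 0.14). Abcc6, whose product is needed for the release of ATP by the liver, was under the minimum signal (2.85 to 36.5 in transgenic, 2.63 to 22.2 in control samples).

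In phosphate transport and sensing, 3 of 9 genes were tested: Phex at 0.12 log2 (SE 0.21), the phosphate exporter gene Xpr1 at 0.01 (SE 0.18) and the FGF receptor gene Fgfr1 at -0.02 (SE 0.11). The 11 genes of sphingomyelin and phosphocholine metabolism were all tested, with 9 positive and 2 negative differences and a median of 0.02 log2, while 48.8% of all probe sets tested were positive. Sgms1, a sphingomyelin synthase gene, had means of 1431 ± 215 in transgenic and 1275 ± 296 in control samples (0.18 log2, SE 0.16). The sphingosine kinase gene Sphk1 stood at 0.16 log2 (SE 0.20), the choline kinase gene Chka at -0.03 (SE 0.19) and the acid sphingomyelinase gene Smpd1 at -0.02 (SE 0.10). The 95% interval of each of these named genes included 0.

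Of the vitamin K cycle and other Gla proteins, 7 of 8 were tested, with 3 positive and 4 negative differences (range -0.06 to 0.06 log2). Ggcx, the gamma-carboxylase gene, had means of 1677 ± 344 in transgenic and 1593 ± 248 in control samples (0.06 log2, SE 0.17). Vkorc1l1, a reductase gene of the cycle, stood at 0.04 (SE 0.11), Nqo1 at -0.06 (SE 0.21) and Gas6, a Gla protein gene, at -0.02 (SE 0.17). Of 10 genes of matrix vesicle annexins and calcium handling, 8 were tested, with 3 positive and 5 negative (median -0.03 log2). Car2, a carbonic anhydrase gene, stood at -0.27 log2 (SE 0.25) and the calcium pump gene Atp2b1 at -0.15 (SE 0.16), while S100a1 stood at 0.10 (SE 0.21) and S100a10 at 0.02 (SE 0.11).

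Of 9 acidic mineral-binding proteins, 5 were tested, with 2 positive and 3 negative (median -0.03 log2). Ibsp, the bone sialoprotein gene, had means of 538 ± 74.3 in transgenic and 653 ± 242 in control samples (-0.21 log2, SE 0.22), Dmp1 stood at -0.09 (SE 0.32), Smoc1 at 0.01 (SE 0.20) and Omd at 0.07 (SE 0.13). Of 15 genes of hypertrophic chondrocytes, 12 were tested, with 7 positive and 5 negative (median 0.02 log2, range -0.27 to 0.42). Mmp13, a matrix-degrading collagenase gene, had means of 189.6 ± 96.6 in transgenic and 131 ± 43.7 in control samples (0.42 log2, SE 0.31), Cd200 stood at 0.15 (SE 0.14), and the transcription factor genes Runx3 and Dlx5 both stood at -0.27 (SE 0.22 each). The wider range of this list went with wide errors, and none of the differences was called.

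**Figure D4:**
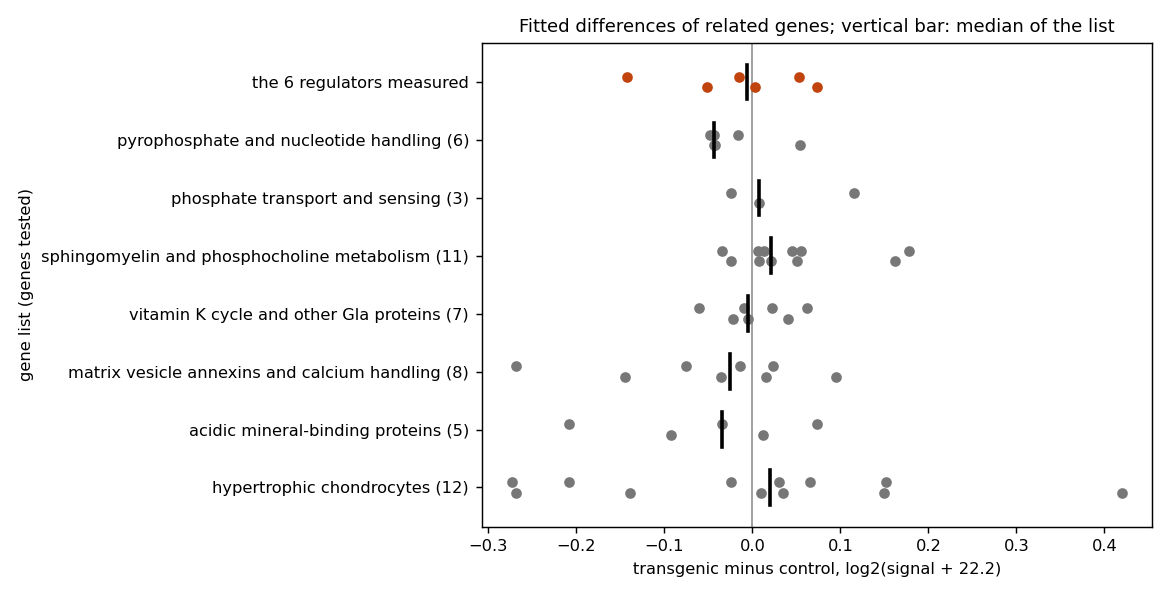
Fitted differences (transgenic minus control, log2 scale, horizontal axis) of the 6 measured regulators and of the tested genes of 7 related lists, 1 point per gene, with a vertical bar at each median. The regulators lie between -0.14 and 0.07, and the list medians lie between -0.04 and 0.02.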

How the data were processed

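The deposited values were linear intensity signals, 1 per probe set and array, made with MAS5 per the submitters' processing notes (version not given in the sources used here). The trimmed mean (2% cut at each end) was 500 on all 8 arrays, so no further normalization was applied, and the number of arrays limits precision. Probe sets with 1 symbol (34945) were named from the platform annotation, and those with several (932), none (9160) or a control role (64) were not. Signals were tested as log2(signal + 22.2), the offset being their 20th percentile, which understates folds of dim genes. The test took probe sets with a mean of at least 110, the median, and a gene was represented by its brightest probe set. limma 3.58.1 in R 4.3.3 (lmFit, eBayes with trend, two-sided) compared genotypes without the litter, with Benjamini-Hochberg adjustment at 0.05, and litters by a moderated F-test. Correlations used exact permutations over pairings of arrays, two-sided (scipy 1.17.1).

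The members and the 16 gene lists were chosen with earlier results of these data known. Named genes were the members, Hoxc8 and the 3 genes most correlated with each member. Of each related list and the dissociation list, up to 2 genes with the largest rise and 2 with the largest fall were named. Of the cell type lists only some such genes were named. Those left out include Myh3 of skeletal muscle (0.56 log2, SE 0.22, limma, unadjusted p = 0.0258, adjusted p = 0.9999) and Ptprc of white blood cells (-0.55, SE 0.56). Neither was called. Abcc6, Sost, Mepe, Ocstamp, Acp5, Col1a1, S100a8 and Csf1r were named after their values were seen. So were Col10a1, Pth1r, Vegfa, Ihh, Sparc, Fosb, Hspa1a and Hspa1b. Replicate numbers pair samples because the labels tie them to litters. After the group means were subtracted, arrays of the same litter correlated across probe sets at 0.0251, 0.434, 0.376 and 0.379. The highest correlation of each transgenic array with a control of another litter was 0.0303, 0.063, 0.00416 and -0.0722. The signals thus did not set the pair of litter 1 apart. Alternatives were the litter block, other offsets and filters, quantile normalization, eBayes without trend, an unmoderated test, averaged probe sets, and leaving out arrays or litters. The correlation of Ank with the other Smpd3 probe sets was added after seeing the data. The steps were tested on simulated data.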

Additional observations from a re-analysis of the deposited data

Results flagged for a closer look

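In 4 of 24 groups of 4 samples, 1 sample stood apart from the other 3 by Dixon's criterion, which chance alone meets in about 1 in 20 groups. The Alpl signal of the transgenic sample of litter 4 was 492.5, and the nearest of its group was 822. The signal of the second Slc20a1 probe set was 1188 in the transgenic sample of litter 2, against 497 in the nearest. By the brightest it was 1403 in the control sample of litter 2, against 1017 in the nearest. The signal of the brighter Slc20a2 probe set was 528 in the control sample of litter 2, against 710.3 in the nearest. Of these 4 values 3 came from litter 2.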

How the results depend on the processing

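The count of 0 probe sets between genotypes was found in all 19 alternative fits (lowest adjusted p 0.989), and that of 0 for the mineralization genes in all 20. With the replicate block for litter the counts were 0 and 0, with 752 probe sets at an unadjusted p below 0.05 against 246 without it, and the pairing changed no call. Of 120 member differences under alternatives, 0 passed and 20 had the opposite sign. All but 1 of these left out arrays: with averaged probe sets Smpd3 stood at -0.012. Over the fits leaving out 1 array or litter, the differences ran from -0.179 to 0.135 for Alpl, -0.091 to 0.138 for Ank, -0.221 to -0.016 for Mgp, -0.026 to 0.204 for Smpd3, -0.058 to 0.201 for Slc20a1 and -0.125 to 0.036 for Slc20a2.

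The litter counts (2027 probe sets over the array, 3 probe sets of 2 of these genes) were 995 and 1 without a filter and 0 and 0 by eBayes without trend. Leaving out arrays or litters they ran from 546 to 3047 probe sets and from 0 to 5 of these genes' probe sets. The cause was not tested. Subtracting the litter means gave correlations without a p, and so no count of pairs. Signals near the offset limit what can be read for the third Slc20a1 probe set, and Enpp1 and Phospho1 were not analysed here.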
